A study of Mus musculus with 3 samples.

Results

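The cells described here are the kept cells that the authors' deposited tables assign to cluster 8, a pigment cell population led by *Tyrp1*, *Kcnj13*, *Prpmp5* and *Slc45a2*. They were found by matching each labelled barcode to the raw count matrix of its library, and numbered 2048 of 26008 kept cells: 839 of 9076 in control pool 1, 767 of 10160 in control pool 2 and 442 of 6772 in the *Angpt1*ΔNC pool. No barcode of cluster 8 was shared between libraries. The study profiled single cells of the mouse limbus and iridocorneal angle by droplet sequencing, to catalogue the cells around the outflow pathway and to compare eyes with and without neural crest *Angpt1*. Controls carried *Angpt1* flox/flox and no Cre. *Angpt1*ΔNC mice carried *Angpt1* flox/flox;Wnt1Cre+, in which the *Wnt1* promoter drives Cre in the neural crest. All animals were 6 weeks old and of mixed strain, and had been crossed to ICR mice so that the litters were albino. Each library was a pool of several animals, so differences between genotypes cannot be told apart from differences between pools.

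Melanocytes arise from the neural crest, migrate into the skin and the stroma of the uvea, and make melanin in melanosomes under the transcription factor MITF, which acts with SOX10 and PAX3. Tyrosinase catalyses the first step of melanin synthesis, TYRP1 and DCT act further along the pathway, and PMEL forms the fibrils on which melanin is laid down. The retinal pigment epithelium (RPE) and the pigmented ciliary epithelium make the same pigment but come from the neuroepithelium of the optic cup, and express PAX6 and OTX factors.

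Depth was high in cluster 8. Its cells held 8738896 unique molecular identifiers (UMIs) in control pool 1, 7469051 in control pool 2 and 5244043 in *Angpt1*ΔNC, with median UMIs per cell of 9907, 9262 and 11293. The medians of all kept cells were 6329.5, 6393.5 and 7444 UMIs. Mitochondrial transcripts took a median of 3.98%, 5.0% and 5.66% of the UMIs in cluster 8. Levels below are means over cells of UMIs per 10,000 UMIs of the cell, and are given for control pool 1, control pool 2 and *Angpt1*ΔNC in that order. Levels are not per length, so a gene is compared between libraries and cell classes and genes are not ranked against each other.

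The name of melanocytes was compared with known markers. *Pmel*, *Dct* and *Mlana* are among the genes that set the cluster apart, and the RPE makes the same pigment. Their presence is therefore a description and does not test the name. *Pmel* stood at 187, 199 and 175 UMIs per 10,000, *Dct* at 147, 180 and 238, and *Mlana*, a melanosome membrane protein of melanocytes, at 51.2, 52.7 and 67.9, and every cell of cluster 8 in all 3 libraries held UMIs of each. *Ednrb*, the endothelin receptor that melanoblasts need, stood at 27.5, 25.6 and 26.9. *Pax3* was found in 36.7%, 31.2% and 46.8% of cells, against 0%, 0.296% and 0% of the surface epithelium of clusters 4 and 5, cells that should lack it. *Kit*, the receptor of stem cell factor, was found in 30.3%, 33.1% and 28.5%, but also in 22.8%, 16.7% and 12.5% of that epithelium. Of the 8 genes listed as markers of neural crest melanocytes, 7 were found in over 10% of the cells.

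The neuroepithelial list read otherwise. None of its 9 genes had enough counts to be tested, and its summed level was 0.0177, 0.0122 and 0.0255 UMIs per 10,000, against 0.354, 0.188 and 0.208 in all other kept cells. *Six6* and *Vax2* had no UMI in any cell of the cluster, which allows a share of up to 0.358%, 0.391% and 0.679% of cells with a UMI and sets no limit on cells that express them at a low level. *Best1*, a chloride channel of the RPE, was at 0 as well, and *Rpe65*, its visual cycle isomerase, was seen in 1.19%, 0.13% and 0.226% of cells. In the epithelium *Rpe65* was found in 1.31%, 0.593% and 0.11% of cells, so its shares in cluster 8 are read as background. Not all of the 8 listed RPE genes were this scarce, and 3 were found in over 10% of the cells. *Ttr*, one of the 8, was found in 23.1%, 25.0% and 51.8% of cells, against 23.1%, 16.5% and 2.96% of the epithelium. *Rdh5* and *Lrat*, retinoid enzymes on the RPE list, were at 0.517, 0.549 and 0.27 and at 0.191, 0.243 and 0.126 UMIs per 10,000 respectively, and *Rdh5* fell in *Angpt1*ΔNC (edgeR adjusted p = 0.00687). Its log2 change was -0.97 in cluster 8, -1.1 in cluster 9 and -2.52 in the kept cells outside both. The RPE cells of cluster 1 numbered 133, 81 and 17. The part of background RNA in *Rdh5* and *Lrat* was not tested.

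Markers of fibroblasts, surface epithelium, macrophages, endothelium and T cells were low. The summed level of 7 fibroblast and keratocyte genes was 0.427, 0.569 and 0.511 UMIs per 10,000 in cluster 8, against 105, 111 and 147 in the other kept cells, and 3, 7 and 3 cells held at least 3 of them. For the 7 surface epithelium genes the sums were 0.515, 0.467 and 0.526 against 36.4, 29.4 and 40.9. The sums of the 7 macrophage genes ran from 0.369 to 0.452, those of the 5 endothelial genes from 0.0293 to 0.0605, and the 4 T cell genes were at 0 in all 3 libraries. *S100b*, a calcium-binding protein of glia that melanocytes also express, was not: it stood at 14.3, 17.4 and 21.9 in cluster 8 and at 1.06, 1.34 and 1.16 in the other kept cells, with every cell of the cluster positive. Between genotypes, 4 of 7 smooth muscle, 5 of 7 fibroblast and keratocyte, 3 of 5 endothelial, 5 of 7 macrophage and 1 of 5 pericyte genes could be tested. None of these was called, against 8.74% of all genes. The others had too few counts, so they give no result. *Krt15*, a keratin, was called among the 5 epithelial genes tested, at 0.0212, 0.0312 and 0.0885 UMIs per 10,000 (edgeR adjusted p = 0.0253). It was not called in male-typed cells, those with a Y-linked UMI and no *Xist* (adjusted p = 0.103), or by DESeq2 (adjusted p = 0.344). The log2 change of *Krt15* was 1.72, and 1.61 in male-typed cells. It was 1.3 in cluster 9 and 1.69 in the kept cells outside clusters 8 and 9. The part of background RNA was not tested.

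Since the cells were clustered on these genes, the levels that set cluster 8 apart are given as a description without a test. The 15 genes with the highest fold over all other kept cells, after adding 0.1 to both levels, were *Prpmp5*, *Prb1*, *Tyrp1*, *Kcnj13*, *Slc45a2*, *Fabp3*, *Pmel*, *Mlana*, *Oca2*, *Scn8a*, *Cort*, *Car6*, *Dct*, *Stmn3* and *Tyr*. Their folds ran from 44.8 for *Prpmp5* to 14.3 for *Tyr*. 7 of them encode melanosome proteins. The others include *Kcnj13*, the inward rectifier potassium channel Kir7.1, *Scn8a*, a voltage-gated sodium channel, *Fabp3*, a fatty acid binding protein, and *Cort*, the neuropeptide cortistatin.

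*Tyrp1* stood at 69.1, 78.9 and 77.0 UMIs per 10,000 in cluster 8, with every cell positive, and at 0.0571, 0.0759 and 0.0578 in the epithelium. In that epithelium 9.2%, 11.1% and 8.56% of cells still held a *Tyrp1* UMI, at median depths of 17717, 15168.5 and 15135, and these shares give the background of free RNA. *Kcnj13* was at 7.15, 7.48 and 12.8 and was found in 94.8%, 95.4% and 99.8% of cells, against 0.91%, 2.47% and 1.54% of the epithelium. *Slc45a2*, a melanosome transporter, was at 10.1, 9.4 and 6.64 and found in at least 99.3% of cells in each library, against at most 1.78% of the epithelium.

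**Figure D1:**
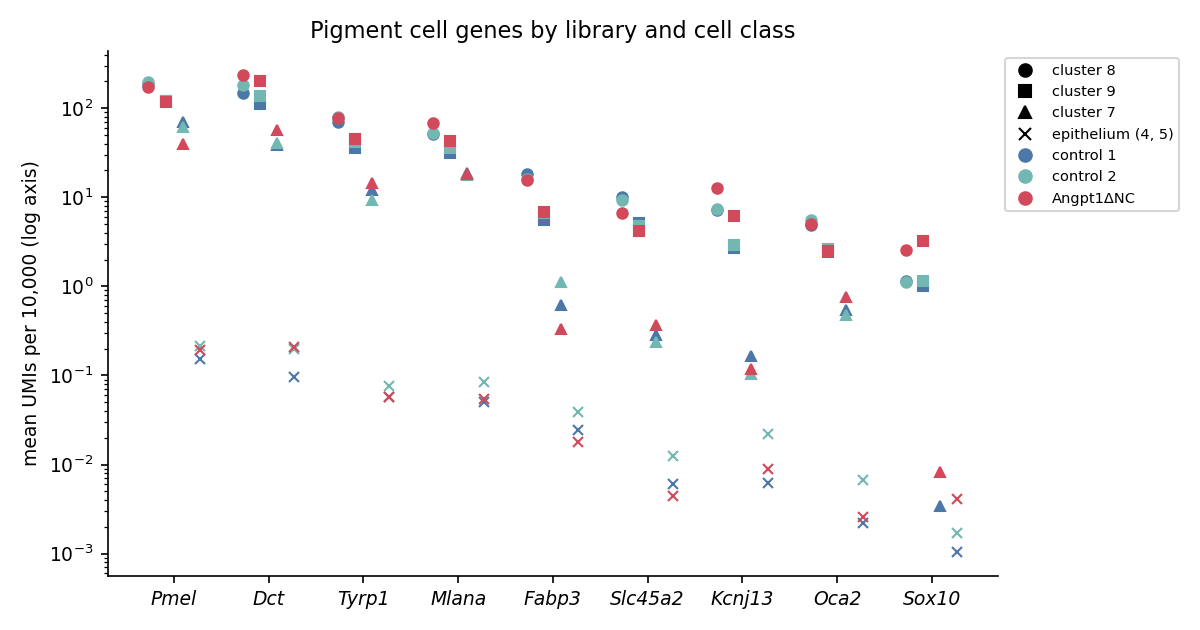
Mean UMIs per 10,000 (log axis) of 9 pigment cell genes in each library (colours), for clusters 8, 9 and 7 and the epithelium of clusters 4 and 5 (symbols); values of 0 are not drawn. Cluster 8 lies highest for most genes, cluster 9 follows closely, and *Tyrp1* falls from 69.1, 78.9 and 77.0 in cluster 8 to 0.0571, 0.0759 and 0.0578 in the epithelium.

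Promoters of the leading genes were read from RefSeq (GRCm38.p6, the build named mm10 in the labels), as 250 bases before and 50 after the start of transcription. The 7-base motif TCATGTG, the core of the M-box known to bind MITF, was searched on both strands; it contains the shorter E-box CATGTG. Of the 15 leading genes 12 had a promoter in the table, and 5 of these held the motif (*Dct*, *Fabp3*, *Kcnj13*, *Tyr* and *Tyrp1*). Of all 27025 genes with a promoter, 4.31% held it in a promoter of this length, as did 3.77% of all 32851 promoters. The 5 promoters are shown with the motif in capitals, which reads CACATGA where it lies on the other strand, together with that of *Prpmp5*, the first of the leading genes, in which these letters were not found. Each is written 5′ to 3′ on the strand of its gene. The first base of the motif lay 47 bases before the start in *Tyrp1* (chr4:80833963-80834262, plus strand), 22 in *Tyr* (chr7:87493463-87493762, minus strand), 46 in *Fabp3* (chr4:130308488-130308787, plus strand) and 112 in *Kcnj13* (chr1:87394680-87394979, minus strand). *Dct* (chr14:118052197-118052496, minus strand) held 2 copies. The *Prpmp5* window was chr6:132314694-132314993, minus strand.
Tyrp1: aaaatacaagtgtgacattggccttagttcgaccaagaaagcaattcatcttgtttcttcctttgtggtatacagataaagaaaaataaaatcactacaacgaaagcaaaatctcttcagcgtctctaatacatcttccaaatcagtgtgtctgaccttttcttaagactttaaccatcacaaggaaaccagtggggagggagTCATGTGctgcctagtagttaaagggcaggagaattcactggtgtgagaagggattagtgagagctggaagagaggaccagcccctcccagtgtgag
Tyr: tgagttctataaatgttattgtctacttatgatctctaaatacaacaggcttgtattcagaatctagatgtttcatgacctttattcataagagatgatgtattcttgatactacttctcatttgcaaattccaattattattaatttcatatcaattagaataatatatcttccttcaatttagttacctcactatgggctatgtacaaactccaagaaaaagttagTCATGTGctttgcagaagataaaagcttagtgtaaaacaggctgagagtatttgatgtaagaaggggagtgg
Dct: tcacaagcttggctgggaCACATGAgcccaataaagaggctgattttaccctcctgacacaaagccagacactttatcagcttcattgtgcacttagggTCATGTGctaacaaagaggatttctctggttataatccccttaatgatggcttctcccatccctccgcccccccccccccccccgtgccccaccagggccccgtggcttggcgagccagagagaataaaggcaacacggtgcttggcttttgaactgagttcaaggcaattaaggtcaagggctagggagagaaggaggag
Fabp3: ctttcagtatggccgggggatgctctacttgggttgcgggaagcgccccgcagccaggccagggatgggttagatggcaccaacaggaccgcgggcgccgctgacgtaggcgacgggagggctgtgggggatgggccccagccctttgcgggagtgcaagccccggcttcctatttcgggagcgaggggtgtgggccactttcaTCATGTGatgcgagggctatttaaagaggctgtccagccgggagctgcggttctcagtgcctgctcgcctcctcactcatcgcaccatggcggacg
Kcnj13: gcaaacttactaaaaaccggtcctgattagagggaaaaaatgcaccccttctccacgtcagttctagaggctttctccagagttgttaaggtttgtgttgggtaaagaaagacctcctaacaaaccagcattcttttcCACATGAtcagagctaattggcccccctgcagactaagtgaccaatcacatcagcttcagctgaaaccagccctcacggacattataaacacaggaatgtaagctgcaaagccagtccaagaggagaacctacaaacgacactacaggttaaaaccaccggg
Prpmp5: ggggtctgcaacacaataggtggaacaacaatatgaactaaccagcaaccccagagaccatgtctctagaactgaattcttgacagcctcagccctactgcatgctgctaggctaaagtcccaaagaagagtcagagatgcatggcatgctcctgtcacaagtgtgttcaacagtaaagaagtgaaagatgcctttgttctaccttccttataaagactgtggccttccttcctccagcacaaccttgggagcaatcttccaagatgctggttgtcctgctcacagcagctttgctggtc
Among the 15 melanin and melanosome genes 11 had a promoter and 5 held the motif, *Slc24a5* and *Slc7a11* being those not shown. *Slc7a11*, a cystine transporter, was found in 0.477%, 0.913% and 0.226% of the cells of cluster 8, below the 5.36%, 4.35% and 9.88% of the epithelium.

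*Prpmp5* and *Prb1* marked a minority of the cells. Both encode proline-rich proteins best known from salivary glands, and both lie on the minus strand of chromosome 6 in GRCm38, *Prb1* at chr6:132206795-132210521 and *Prpmp5* at chr6:132311590-132314757. Their median level was 0 in every library. *Prpmp5* was found in 22.4%, 30.8% and 43.2% of cells and *Prb1* in 25.4%, 30.6% and 32.6%, against 0.708%, 2.37% and 0.768% and 2.22%, 4.05% and 0.659% of the epithelium. Cells with at least 10 UMIs of the pair per 10,000 numbered 150 (17.9%, exact 95% interval 15.3 to 20.6), 186 (24.3%, 21.3 to 27.4) and 112 (25.3%, 21.3 to 29.7), and held 98.2%, 98.6% and 96.5% of the summed level. In the epithelium no cell of 989, 1012 and 911 reached that level, which allows a share of up to 0.303%, 0.296% and 0.329%. Cluster 9 held 21, 65 and 21 such cells (2.95%, 8.14% and 7.19%). The threshold was chosen after the values were seen, and 48, 47 and 46 cells lay within a factor of 2 of it.

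The pair was found together more often than alone. 147, 176 and 113 cells held UMIs of both genes, 41, 60 and 78 of *Prpmp5* alone and 66, 59 and 31 of *Prb1* alone. Reads of the 2 paralogs may be assigned to either, so single positives are uncertain. The summed UMIs of *Prpmp5* and *Prb1* stood in a ratio of 0.683 and 0.67 in the controls and 1.28 in *Angpt1*ΔNC. In cells at or above the threshold *Tyrp1* was at 68.5, 76.4 and 79.2 UMIs per 10,000, and in the other cells of the cluster at 69.3, 79.7 and 76.2. *Pmel* stood at 186, 201 and 179 in the high cells and at 188, 198 and 174 in the others. *Fabp3* was at 28.7, 21.6 and 22.0 in the high cells and at 15.8, 14.3 and 13.7 in the others, so it was higher in the high cells of all 3 libraries.

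**Figure D2:**
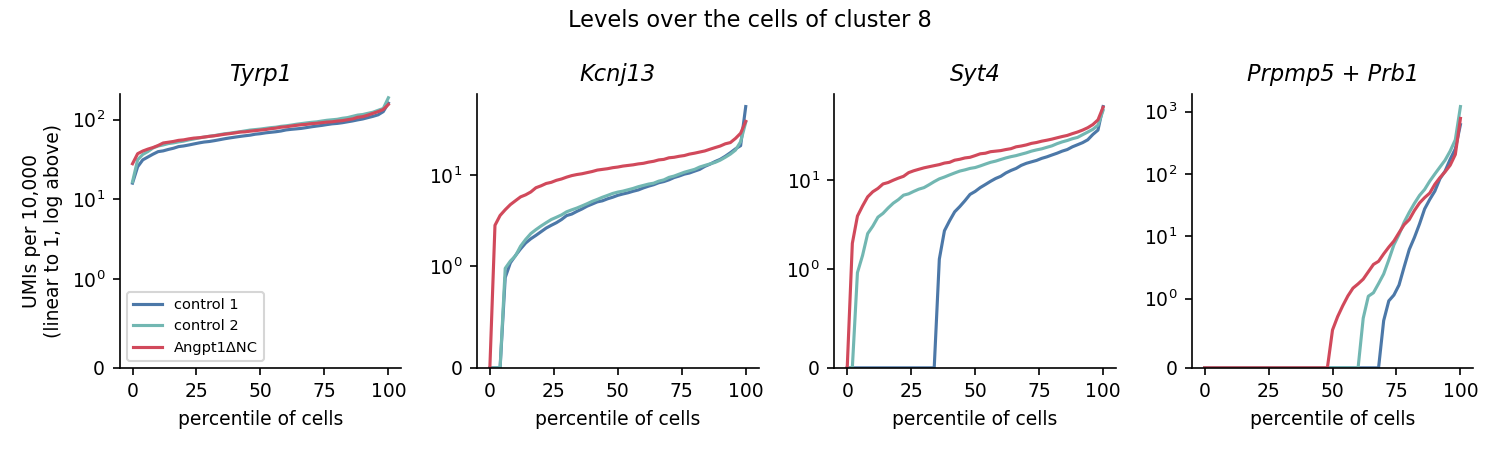
Level in UMIs per 10,000 (linear up to 1, log above) against the percentile of cells within cluster 8, one line per library. *Tyrp1* is present in all cells, *Syt4* is at 0 in 34.4% of the cells of control pool 1, and *Prpmp5* with *Prb1* rises from 0 only in the upper part of each library.

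*Syt4*, a synaptotagmin of vesicle traffic on the neural crest melanocyte list, differed between the control pools. Its level was 10.0, 15.7 and 20.2, and 289 cells of control pool 1 (34.4%, exact 95% interval 31.2 to 37.8) held none of its UMIs, against 28 in control pool 2 (3.65%, 2.44 to 5.23) and 1 in *Angpt1*ΔNC (0.226%, 0.00573 to 1.25). After thinning every cell to 2000 UMIs, which left out no cell, the shares without *Syt4* were 43.3%, 15.4% and 7.92%. The order was the same as before thinning. Cluster 9 had the same order at 32.6%, 6.26% and 3.42%. The change of *Syt4* between genotypes, a log2 change of 0.69 ± 0.23 (SE), did not pass (edgeR adjusted p = 0.108), but in male-typed cells it was 1.16 (adjusted p = 0.00774).

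Cluster 9 was set beside cluster 8 because the authors name both melanocytes, and likeness to other classes was not measured. Cluster 9 had 711, 799 and 292 cells and lower depth (medians of 5427, 5504 and 7320.5 UMIs). Levels were higher in cluster 8 for *Prpmp5* (10.7 against 1.71 over all libraries), *Lpl* (3.43 against 0.895), *Kcnj13* (8.5 against 3.35), *Fabp3* (16.8 against 6.22) and *Spp1*, which encodes osteopontin (47.4 against 18.7). They were lower for *Lgals3*, which encodes galectin-3, at 10.9, 10.5 and 5.14 against 36.7, 29.9 and 9.81, and for the calcium-binding protein gene *S100a6* (3.37 against 9.13 over all libraries). Each of these held in all 3 libraries. *Pmel* (187, 199 and 175 against 120, 121 and 117) and *Tyrp1* (69.1, 78.9 and 77.0 against 35.7, 41.6 and 45.3) were lower in cluster 9 but far above the epithelium. *Sox10* stood at 1.14, 1.13 and 2.55 against 1.01, 1.14 and 3.21 in cluster 9.

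The share of cluster 8 among kept cells was 9.24% (exact 95% interval 8.66 to 9.86), 7.55% (7.04 to 8.08) and 6.53% (5.95 to 7.14), so *Angpt1*ΔNC lay below both controls. The intervals cover counting error only. Among the cells of clusters 8 and 9 alone the order turned, with 54.1%, 49.0% and 60.2% in cluster 8. With 2 pools against 1 an exact permutation test cannot go below p = 0.333, and no difference in share is called.

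To ask which genes of these cells differed between *Angpt1*ΔNC and control, UMIs were summed per library over cluster 8 and tested with edgeR's quasi-likelihood test. Only 1 residual degree of freedom was left, so the lone *Angpt1*ΔNC pool was taken to vary like the controls. Of 11434 genes tested 999 were called at an adjusted p under 0.05, or 8.74%, with 521 higher (4.56%) and 478 lower (4.18%) in *Angpt1*ΔNC. 437 of these changed by over 1 on the log2 scale and lay outside both controls. The median log2 change of all tested genes was -0.006. DESeq2 called 310 genes on the same sums, and cells typed as male alone, 687, 628 and 134 in number, gave 672.

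The deleted gene was scarce in these cells. *Angpt1* had 22, 17 and 0 UMIs in cluster 8, and was found in 2.62%, 2.09% and 0% of cells. The 0 of 442 *Angpt1*ΔNC cells allows a share of up to 0.679% of cells with a UMI, and does not limit the share that expresses it. In the epithelium it was found in 0.303%, 0.494% and 0%, and over all other kept cells it stood at 0.623, 0.562 and 0.00357 UMIs per 10,000. Counted against 3 UMIs, the *Angpt1*ΔNC level was at least 4.21-fold lower (edgeR adjusted p = 0.0253), a call lost in male-typed cells (adjusted p = 0.126). *Tek*, its receptor, and *Svep1* had too few counts to be tested.

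The pools differed in sex. *Xist*, transcribed from the inactive X chromosome, had 0, 0 and 1860 UMIs, at least 1916-fold more in *Angpt1*ΔNC when the controls together are counted at 3 UMIs. It was found in 63.8% of the *Angpt1*ΔNC cells, although the labels give males and females in each pool. The 4 Y-linked genes were lower in *Angpt1*ΔNC (*Ddx3y* 1.07, 1.07 and 0.556). Values in male-typed cells are therefore given for the called genes named here where they end a call or move a fold by over 1.5 times. The male-typed set is smaller, with 134 of 442 *Angpt1*ΔNC cells, and some calls ended there with little change in fold. The log2 change of *Clcn7* was 0.7 in all cells and 0.72 in male-typed cells. That of *Mitf* was -0.63 in all cells and -0.06 in male-typed cells. That typing uses the Y-linked genes, so their change there (*Ddx3y* 0.48, *Uty* 0.08 on the log2 scale, in the other direction) is no measurement of them.

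**Figure D3:**
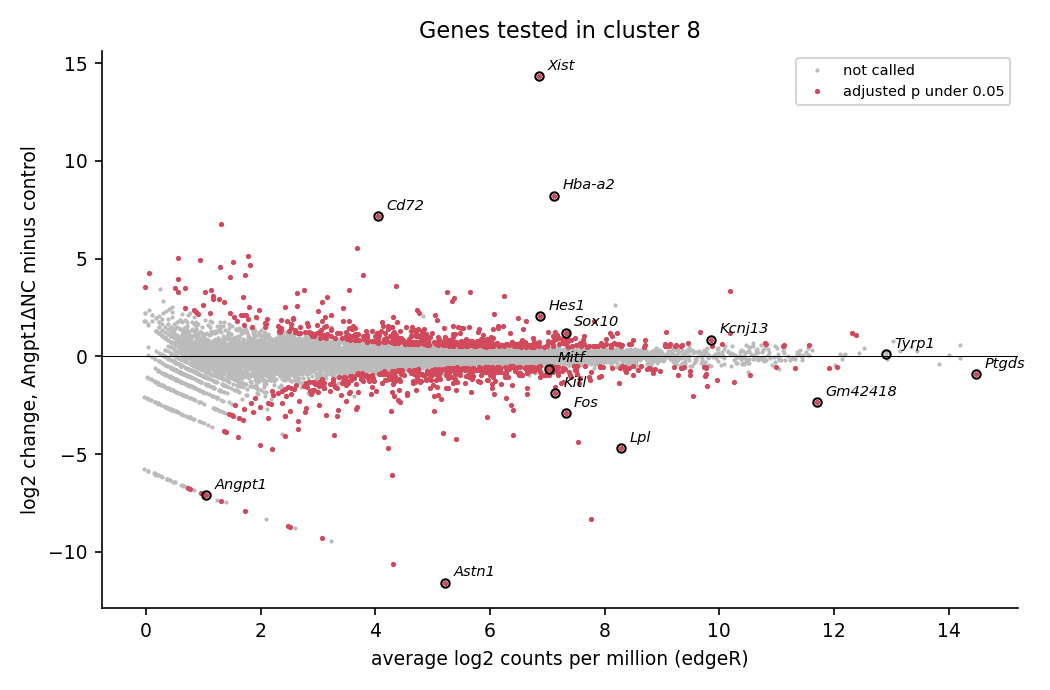
Log2 change between *Angpt1*ΔNC and control against average abundance (log2 CPM) for the 11434 genes tested in cluster 8, with called genes in red and labelled genes circled. Most of the 999 called genes lie within a few log2 units of 0; the heights of genes at 0 in one group, such as *Xist* and *Astn1*, depend on the prior count of the fit.

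Most melanin genes were not called between genotypes. Of 15 melanin and melanosome genes 14 were tested, 1 rose and 1 fell, with a median log2 change of 0.09. *Gpnmb*, a melanosome glycoprotein, rose from 18.9 and 19.9 to 28.1 (log2 change 0.55 ± 0.13 SE, edgeR adjusted p = 0.0296), but in male-typed cells the change was 0.32 (adjusted p = 0.226). *Slc45a2* fell from 10.1 and 9.4 to 6.64 (-0.52 ± 0.13, adjusted p = 0.0398), a call lost with DESeq2 (adjusted p = 0.059). *Tyr*, *Tyrp1* and *Pmel* had log2 changes of 0.05, 0.1 and -0.09 with standard errors of 0.13 to 0.14. *Dct* was at 147, 180 and 238, a change of 0.57 ± 0.15 that missed the threshold (adjusted p = 0.0513). Of 22 genes of melanosome biogenesis and transport, all tested, *Ap3b1* rose and *Bloc1s2* fell. In male-typed cells both missed the threshold (edgeR adjusted p = 0.0614 and 0.0749). Their log2 changes there were 0.59 and -0.74, beside 0.63 and -0.7 in all cells of the cluster. DESeq2 called neither (0.314 and 0.414). With 2 calls of 14 and 2 of 22, read against 8.74% of all genes, the lists give no result of their own.

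Regulators of the lineage moved in both directions. *Sox10* rose from 1.14 and 1.13 to 2.55 (log2 change 1.21 ± 0.12, edgeR adjusted p = 0.000414), and was found in 59.1%, 57.9% and 87.6% of cells, against at most 0.549% of the epithelium. *Sox9*, a related factor, rose from 1.03 and 1.04 to 2.18 (1.07 ± 0.12, adjusted p = 0.000888). For both, *Angpt1*ΔNC lay above both controls, which differed little. In the other kept cells *Sox9* stood at 0.983, 1.14 and 0.914. *Mitf* fell from 1.61 and 1.36 to 0.958 (-0.63 ± 0.14, adjusted p = 0.0279), but in male-typed cells its change was -0.06 (adjusted p = 0.879), and DESeq2 did not call it (adjusted p = 0.114). Of the 8 neural crest melanocyte markers *Sox10* alone was called, and the list's median log2 change was 0.44. The other 11 of the 14 regulators tested, among them *Pax3*, *Kit*, *Ednrb* and *Met*, were not called. *Hes1*, a target of Notch signalling, rose from 0.596 and 0.59 to 2.36 (2.05 ± 0.12, adjusted p = 1.23e-05), with the positive share going from 26.2% and 25.7% to 53.2%, beside 93.8%, 93.2% and 97.8% in the epithelium. Other kept cells held more of it, at 3.3, 3.18 and 5.04, and the part of free RNA was not tested.

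*Kcnj13* rose from 7.15 and 7.48 to 12.8 (log2 change 0.86 ± 0.13, edgeR adjusted p = 0.00367), and 1 further ion channel gene of 8 tested, the chloride transporter *Clcn7*, was called, though not in male-typed cells (adjusted p = 0.0848) or by DESeq2 (adjusted p = 0.448). *Trpm1*, a cation channel of melanocytes, stood at 14.3, 12.9 and 15.6 and was not called. *Cort* rose from 1.86 and 2.12 to 4.39 (1.19 ± 0.14, adjusted p = 0.000888) and *Spp1* from 39.8 and 36.9 to 80.1 (1.07 ± 0.12, adjusted p = 0.00085). *Car6*, a secreted carbonic anhydrase, fell from 9.56 and 13.1 to 4.05 (-1.52 ± 0.21, adjusted p = 0.00272). *Prpmp5* and *Prb1* were not called (adjusted p = 0.82 and 0.0708).

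Of 11 secreted factors tested 2 fell and none rose, against 4.18% of all genes lower. *Kitl*, which encodes the ligand of the melanocyte receptor KIT, fell from 1.83 and 1.95 to 0.465 (log2 change -1.89 ± 0.15, edgeR adjusted p = 7.99e-05), and its positive share went from 66.5% and 65.2% to 33.9%, beside 31.2%, 29.6% and 21.2% in the epithelium. *Ptgds*, which makes prostaglandin D2, fell from 249 and 284 to 142 (-0.91 ± 0.15, adjusted p = 0.00542). In male-typed cells *Ptgds* changed by -1.51. *Vegfa*, *Vegfb*, *Tgfb1* and *Pdgfa* were not called.

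Lipoprotein lipase, which frees fatty acids from circulating lipids, fell in *Angpt1*ΔNC. *Lpl* stood at 4.31 and 4.36 UMIs per 10,000 in the controls and 0.143 in *Angpt1*ΔNC, where 7.24% of cells held it against 75.0% and 79.3%, with 0.708%, 1.78% and 0.659% in the epithelium (log2 change -4.68 ± 0.17, edgeR adjusted p = 9.66e-07). In male-typed cells the change was -3.16 (adjusted p = 2.07e-06). *Scd1*, a fatty acid desaturase, fell from 0.461 and 0.414 to 0.0677 (-2.8 ± 0.21), and by -3.6 on the log2 scale in male-typed cells. In cluster 9 *Lpl* went from 0.974 and 1.14 to 0.0183.

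Immediate early genes fell in 7 of 12 tested members and rose in none, against 4.18% of all genes lower, with a median log2 change of -0.88 beside -0.006 for all genes. *Fos* went from 2.68 and 2.1 to 0.319 (log2 change -2.91 ± 0.22, edgeR adjusted p = 7.27e-05), *Jun* from 2.5 and 1.77 to 1.02 and *Klf4* from 3.02 and 2.77 to 1.38. *Fosb* (5.77, 6.16 and 7.55) and *Junb* (6.23, 4.67 and 6.75) were not called. The heat shock list fell in 4 of 9, against the same 4.18%, among them *Hspa8* from 19.9 and 16.6 to 9.12 and *Hspa1a* from 1.13 and 0.825 to 0.355. In male-typed cells *Fos* changed by -1.5 and was still called, while *Egr1*, *Ier2*, *Hspa1a* and *Hspa1b* were not (adjusted p = 0.198, 0.217, 0.148 and 0.0704), and *Fosb* rose by 0.54 (adjusted p = 0.038). *Ier3* changed by -0.85 in all cells and by -1.59 in male-typed cells. Over all cells outside cluster 8 *Fos* stood at 10.7, 7.4 and 4.82. DESeq2 did not call *Atf3* or *Ier2* (adjusted p = 0.153 and 0.158). These genes are known to respond to tissue dissociation, whose part here was not tested.

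Interferon-stimulated genes rose in 6 of 14 tested members and fell in 1, against 4.56% of all genes higher and 4.18% lower, with a median log2 change of 0.46. *Ifit3* went from 1.78 and 2.27 to 4.61 (log2 change 1.21 ± 0.18, edgeR adjusted p = 0.00327), *Ifi35* from 1.16 and 0.917 to 2.1 and *Ifit1* from 1.57 and 1.64 to 2.86. *Stat2*, which carries the interferon signal, fell from 0.426 and 0.386 to 0.204, and *Isg15* (6.26, 4.87 and 6.57) was not called. In male-typed cells *Ifit3* changed by 0.38 and was not called (adjusted p = 0.287), and *Ifi35* changed by 1.05 and was (adjusted p = 0.00159). *Ifi27*, *Rtp4* and *Usp18* lost the call in male-typed cells as well (0.0589, 0.0809 and 0.236), and DESeq2 did not call *Ifit3*, *Stat2* or *Usp18* (0.0988, 0.0872 and 0.206). The list for antigen presentation by MHC class I fell in 5 of 8, against 4.18% of all genes, with *H2-D1* from 15.7 and 10.2 to 5.41 and *H2-K1* from 4.33 and 4.76 to 2.72. *B2m*, the shared light chain, was at 14.0, 15.9 and 19.2 and was not called. DESeq2 called *H2-K1* alone of the 5, with adjusted p values of 0.124 to 0.287 for the others. The immunoproteasome genes *Psmb8* and *Psmb9* changed by -0.75 and -1.41, and in male-typed cells by -1.6 and -2.11. Class I genes are polymorphic and close in sequence, so the assignment of their reads is uncertain.

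The remaining lists moved little. Of 15 vacuolar ATPase genes, the pump that acidifies melanosomes and lysosomes, *Atp6v1a* rose from 1.22 and 1.32 to 1.84 (edgeR adjusted p = 0.022), but not in male-typed cells (0.0693) or by DESeq2 (0.0935). None of 10 lysosomal genes or of 6 cell cycle genes was called, and of 17 genes of oxidative phosphorylation *Cox5a* fell from 9.38 and 7.78 to 4.31 (adjusted p = 0.00401). Of 6 genes of ERK feedback *Dusp4* fell from 0.401 and 0.235 to 0.15 (adjusted p = 0.04), a log2 change of -1.11 that was -1.86 in male-typed cells and that DESeq2 did not call (0.139). Of 3 markers of the ciliary epithelium 2 were tested and neither was called.

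The 15 genes of the smallest adjusted p in each direction, with a log2 change over 1 and a *Angpt1*ΔNC level outside both controls, included 7 predicted genes. The higher genes were *Xist*, *Cd72*, *Gbp2b*, *Hba-a2*, *Phlda3*, *Il11ra1*, *Pla2g7*, *Gm15726*, *Ntm*, *Hes1*, *Slc15a2*, *Ifi27l2a*, *Ttr*, *Ecm1* and *Rpl29*. *Il11ra1*, the interleukin 11 receptor, went from 0.162 and 0.116 to 1.35, *Phlda3* from 0.14 and 0.121 to 0.975, and the peptide transporter *Slc15a2* from 0.131 and 0.0783 to 1.02. *Hba-a2*, alpha globin, was found in 0.238%, 0.522% and 4.07% of cells, against 0.607%, 0.198% and 5.38% of the epithelium, and is read as background. Its log2 change of 8.22 was 7.07 and 9.73 on leaving out control pool 1 and 2, and that of *Cd72*, a B cell surface protein, went from 7.19 to 6.02 without control pool 1. In male-typed cells they were 6.12 and 6.53. *Ttr*, an RPE and ciliary epithelium product, rose here from 0.438 and 0.476 to 1.81 while the other kept cells held 15.5, 7.43 and 1.09. It was found in 23.1%, 25.0% and 51.8% of cells in cluster 8 and in 23.1%, 16.5% and 2.96% of the epithelium.

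The lower genes were *Gm10260*, *Lpl*, *Astn1*, *Gm42418*, *Gm13305*, *Gm11361*, *Irf1*, *Gm10320*, *BC023719*, *Car4*, *Scd1*, *Fos*, *Kitl*, *Cxcl10* and *Cebpd*. *Astn1*, a neuronal adhesion protein, had 504, 365 and 0 UMIs and *BC023719* had 270, 182 and 0, at least 93.7-fold and 48.7-fold lower in *Angpt1*ΔNC against 3 UMIs. *Gm42418* fell from 53.3 and 49.0 to 9.59. *Irf1*, an interferon regulatory factor, went from 0.964 and 0.806 to 0.106 and the chemokine *Cxcl10* from 1.36 and 0.939 to 0.219. In male-typed cells *Cxcl10* changed by -3.13 in place of -2.47, *Car4* by -3.35 in place of -4.69, *Gm13305* by -1.28 in place of -2.72 and *Gm11361* by -5.02 in place of -4.25. Reads of *Rpl29*, *Il11ra1* and the predicted genes may also match copies elsewhere in the genome, so their values are uncertain.

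The changes of these genes in the rest of the tissue come from the same 3 libraries, so they are set side by side without a test. *Il11ra1* changed by 3.27 in cluster 8, 3.56 in cluster 9 and 2.78 in the kept cells outside both. *Lpl* changed by -4.68, -5.72 and -1.15 in these 3 classes, *Kitl* by -1.89, -1.41 and -0.58, and *Slc15a2* by 3.29, 3.96 and 3.14. Other genes of the lists did not move alike outside both clusters. *Cd72* changed by 7.19, 9.97 and 0.16, *Ntm* by 4.18, 5.41 and -0.62, and *Ttr* by 1.96, 1.89 and -3.08. *Phlda3* changed by 2.97, 0.81 and 0.02. Only some of the genes are given here.

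**Figure D4:**
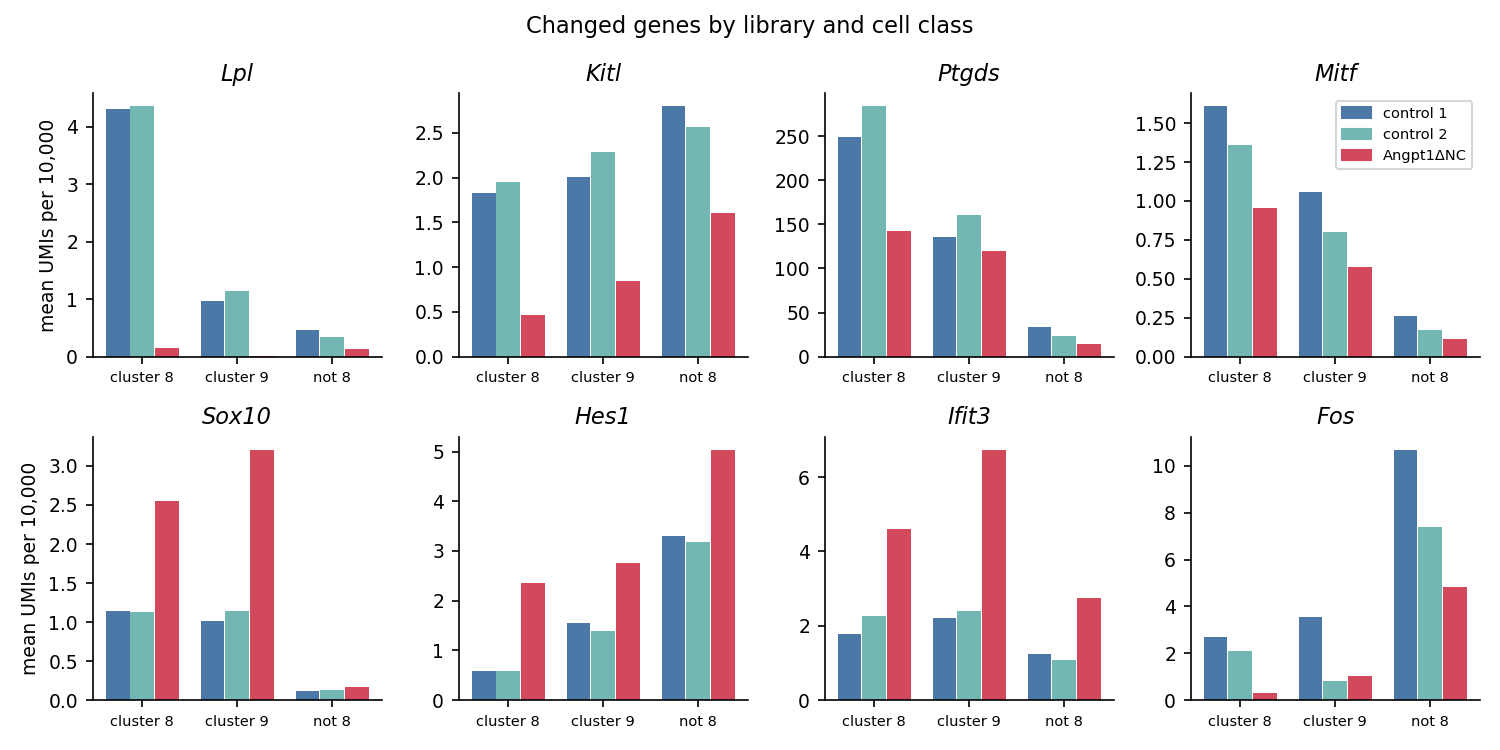
Mean UMIs per 10,000 of 8 genes in each library (coloured bars) for cluster 8, cluster 9 and all kept cells outside cluster 8. *Lpl* falls to 0.143 in the cluster 8 cells of *Angpt1*ΔNC and *Sox10* rises to 2.55, and in cluster 9 they stand at 0.0183 and 3.21.

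Whether genes changed differently in the 2 pigment clusters was tested with an interaction term in a fit over both, with library as a term. Of 11200 genes 208 were called, or 1.86%, 84 with a more positive and 124 with a more negative change in cluster 8. *Ptgds* went from 249 and 284 to 142 in cluster 8 and from 136 and 160 to 120 in cluster 9, a difference of -0.67 ± 0.03 in log2 change (edgeR adjusted p = 1.71e-22). *Spp1* rose in both, from 11.8 and 13.7 to 49.4 in cluster 9 and so more than in cluster 8 (-0.92 ± 0.06, adjusted p = 1.97e-14). *Hes1* stood at 1.55, 1.39 and 2.75 in cluster 9, and rose more in cluster 8 (1.0 ± 0.11, adjusted p = 1.67e-08). The boundary between the clusters was drawn by the authors on expression in these same cells, and its part in these differences was not tested. The summed level of the 4 Y-linked genes was 1.87, 1.97 and 0.861 in cluster 8 and 2.4, 2.39 and 0.631 in cluster 9. The interaction was not fitted in male-typed cells, so the part of sex in these differences was not tested.

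Clustering the cells of cluster 8 again without integration gave 5 subgroups, which are described without a test. Subgroup 2, with 430 cells, came almost wholly from *Angpt1*ΔNC (3, 2 and 425 cells) and was led by *Xist*, *Il11ra1* and *Cd72*. Subgroup 5, with 272 cells, came mostly from control pool 1 (257, 15 and 0) and was lowest in *Syt4*. Subgroups 1, 3 and 4 were shared by the controls, with 253 and 409, 187 and 172, and 139 and 169 cells. Subgroup 1 was led by *Cck* and *Iigp1*, subgroup 3 by *Fos*, *Egr1* and *Hspa1a*, and subgroup 4 by *Prb1* and *Prpmp5*. *Angpt1*ΔNC gave 5, 6 and 6 cells to them. Of the *Angpt1*ΔNC cells 112 were high in *Prpmp5* and *Prb1*, while 6 lay in subgroup 4.

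**Figure D5:**
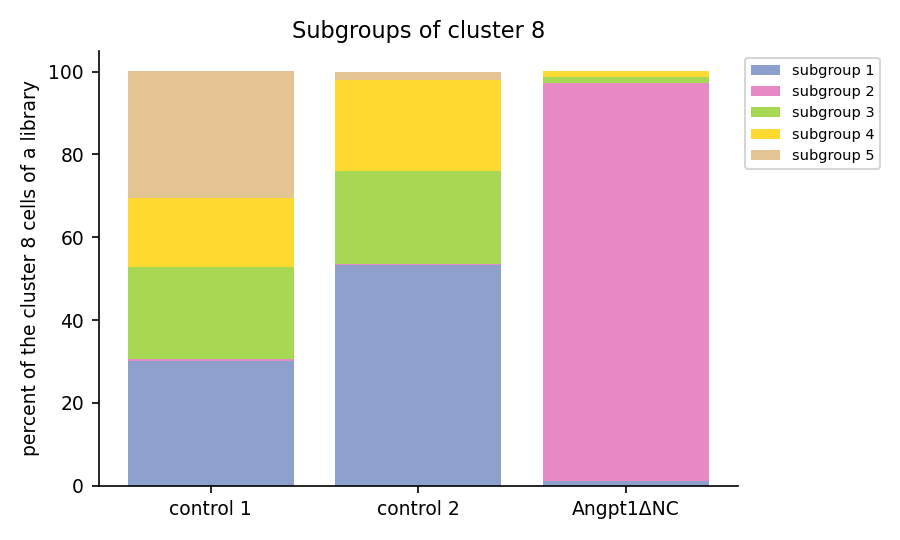
Percent of the cluster 8 cells of each library (bars) in the 5 subgroups (colours). Subgroup 2 holds 96.2% of the *Angpt1*ΔNC cells, and subgroup 5 holds 30.6% of those of control pool 1 and 1.96% of those of control pool 2.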

How the data were processed

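Single cells of the limbus and iridocorneal angle were measured in 3 droplet libraries. Per the labels the authors used Cell Ranger 2.1.1, Seurat 3.1.3 and mm10, while the matrix headers name software version 3.0.2. The deposited matrices hold raw UMI counts of 31053 genes. Cluster labels came from the deposited cell tables, whose integrated expression values were not used. The authors removed low-quality cells and predicted doublets, and no further cells were left out here. Kept cells held at least 1001 UMIs and at most 10.0% mitochondrial UMIs.

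UMI counts were summed per library over cluster 8 and tested with edgeR 4.0.16 (quasi-likelihood, TMM scaling, filtering by expression, Benjamini-Hochberg adjustment) in R 4.3.3, with DESeq2 1.42.0 as an alternative. Standard errors were taken from the F statistic. Differences between clusters 8 and 9 were fitted with library as a term. Both tests were run on simulated counts with the same spread in every library. These cannot check whether the lone *Angpt1*ΔNC pool varies like the controls. The number of pools limits precision: 2 control pools against 1 leave 1 residual degree of freedom. The test between genotypes used 9.77 in total, the rest being borrowed from the spread of other genes. With library as a term, the test between clusters rests on how their contrast differs between the control pools. Neither p-value measures the spread between *Angpt1*ΔNC pools, since there was 1. Shares carry exact Clopper-Pearson 95% intervals, which cover counting error only. Subgroups were made with scanpy 1.11.5 and leidenalg 0.10.2 (1000 variable genes, 10 components, 15 neighbours, resolution 0.5). Named genes were the 15 of smallest adjusted p in each direction with a log2 change over 1 and outside both controls, *Angpt1*, *Xist*, the Y-linked genes, called members of the gene lists, the 10 of smallest adjusted p for the difference between clusters, the 15 with the highest fold over other cells and the 10 with the highest fold in each direction against cluster 9. The cluster, its markers and the gene lists were chosen with earlier results of these data known. Promoters came from RefSeq (GRCm38.p6) and gene positions from GENCODE M21. Some listed genes are not reported here.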

Additional observations from a re-analysis of the deposited data

Results flagged for a closer look

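The change between *Angpt1*ΔNC and control differed between clusters 8 and 9 for 208 genes by the test of the difference itself (edgeR, adjusted p under 0.05). The log2 change in cluster 8 minus that in cluster 9 was -0.67 for *Ptgds*, -0.92 for *Spp1*, -0.84 for *Stmn3*, -1.39 for *Ifi27l2a* and -2.48 for *Cd74*. It was -1.04 for *Iigp1*, -0.54 for *Gm42418* and -0.61 for *Cyb5a*. It was 1.0 for *Hes1* and 0.74 for *S100a10*. *Stmn3*, a stathmin, went from 2.03 and 2.46 to 4.85 UMIs per 10,000 in cluster 9 and from 4.14 and 4.6 to 5.47 in cluster 8. *Cd74*, the MHC class II invariant chain and a gene of the macrophage list, was at 0.102, 0.142 and 0.138 in cluster 8 and at 0.208, 0.233 and 0.622 in cluster 9. On summed UMIs, where deep cells weigh more than in these means, it changed by 0.15 in cluster 8 and 2.6 in cluster 9. The part of free RNA in *Cd74* was not tested. *S100a10* went from 4.98 and 4.63 to 3.52 in cluster 9 and from 1.64 and 1.54 to 2.14 in cluster 8. Its log2 change in cluster 8 was 0.51, but 0.05 in male-typed cells, where it was not called.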

How the results depend on the processing

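The count of genes called in cluster 8 depended on the filter on low counts, the tool and which cells were summed. Against 999 (521 higher, 478 lower), DESeq2 called 310 (142 and 168), no filter on low counts gave 1708 (849 and 859), equal cells per library 1549 (787 and 762), clusters 8 and 9 summed 1998 (1005 and 993) and male-typed cells 672 (336 and 336). Median-of-ratios scaling gave 924, cells with 3 of 4 markers 1244, and, chosen after seeing the data, cells with a *Syt4* UMI 785 and cells low in *Prpmp5* and *Prb1* 1352. Of 72 called genes followed, 19 lost the call with DESeq2 and 18 with male-typed cells. *Ddx3y* (0.48) and *Uty* (0.08) turned direction in male-typed cells. Leaving out a control pool turned none. The count of genes that changed differently from cluster 9 was 232 with median-of-ratios scaling and 162 without a filter, against 208. The *Angpt1*ΔNC share was 77.7% of the control mean, 117% within clusters 8 and 9, 81.8% outside clusters 1 to 5, 69.3% in male-typed cells, and 70.6% to 86.5% with 1 control pool left out. A resolution of 1.0 gave 10 subgroups in place of 5. Mean levels of the leading genes kept within the spread between libraries except *Tyr* after thinning (6.78 against 6.71). No paired analysis was possible because the groups share only 1 replicate number. With 1 *Angpt1*ΔNC pool, genotype, sex and pool cannot be told apart.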
